A study of Homo sapiens with 6 samples.

Results

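GDF15, FGF21, STC1, STC2 and ADM2 encode hormones that cells secrete under stress, and their messenger RNA was followed after a tRNA-derived small RNA was blocked in lung adenocarcinoma cells. The 5 genes were taken by symbol from a deposited table of 58174 genes, in a choice made with earlier results of these data known. All 5 were among the 19040 genes with enough counts to be tested. The cells were PC9, an established human lung adenocarcinoma line. The knockdown group was PC9 treated with an antagomir, a chemically modified antisense oligonucleotide, against tsRNA-5001a, a tRNA fragment, and the control group was PC9 treated with a negative control antagomir. Each group had 3 libraries, and the labels name no dose, no time after treatment and no difference between the groups other than the antagomir. All 6 libraries are of 1 cell line.

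GDF15 is a distant member of the TGF-beta family that signals through the receptor GFRAL in the hindbrain and lowers appetite. FGF21 is a fasting hormone of the fibroblast growth factor family that needs the co-receptor beta-klotho, and it is best known from the liver. The stanniocalcins STC1 and STC2 are secreted glycoproteins that inhibit the pappalysins PAPPA and PAPPA2, proteases that cut insulin-like growth factor binding proteins. ADM2, or intermedin, is a peptide of the calcitonin family that dilates blood vessels. Several of these genes are known targets of ATF4, the transcription factor of the integrated stress response, in which phosphorylation of the initiation factor eIF2 lowers general translation while ATF4 protein is made.

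The upstream bases of FGF21 are shown first because FGF21 had the largest difference of the 5 and is a known target of ATF4. ATF4 with a C/EBP partner binds the composite element TGATGNAA, where N is any base. RefSeq promoters (build GRCh38.p14) were on hand for GDF15, FGF21, STC2 and ADM2, and the 250 bases before each start were searched on both strands. By the GENCODE annotation, 241 of these bases of GDF15 and all 250 of STC2 lie in annotated exons of the same gene. Of these 4, FGF21 held the composite element. It lies 54 to 47 bases before the RefSeq start of FGF21, on the opposite strand, at chr19:48755470-48755477. The first sequence is the 133 bases between the annotated start of the neighbouring gene FUT1, which runs the other way, and the RefSeq start of FGF21 (chr19:48755391-48755523, plus strand), in which the capitals mark the element as it reads on that strand. The other 3 are 24-base windows read on the strand of the element, with the element in capitals, at FGF21 (chr19:48755462-48755485), ASNS (chr7:97872461-97872484) and CHAC1 (chr15:40953254-40953277), all on the minus strand. ASNS and CHAC1 are the 2 genes of a list of ATF4 targets that rose after knockdown, and of the 20 promoters of that list on hand theirs were the 2 with a match. Both of these elements lie in annotated exons of their own gene. The other promoters of that list held no match, and over all promoters the share with a match was 3.19%. Genes with the element were looked at after their values were seen, so these matches are a description. A part of the element in the differences was not tested.

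FGF21 upstream: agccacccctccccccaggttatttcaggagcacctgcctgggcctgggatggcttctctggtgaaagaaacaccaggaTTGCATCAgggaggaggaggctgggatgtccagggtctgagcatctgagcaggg
FGF21 element: ctcctcccTGATGCAAtcctggtg
ASNS element: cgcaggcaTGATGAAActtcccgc
CHAC1 element: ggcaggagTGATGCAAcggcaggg

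The same 8 letters were in 870 of 27305 promoters of that length (3.19%). Among genes higher after knockdown, 7 of 99 with a promoter on hand held them (7.07%), namely ASNS, ATF3, CHAC1, FUT1, GADD45G, KRTAP4-11 and SYNE1. The 27305 promoters include genes not tested here, so these shares are of unlike sets, and their difference was not tested. FGF21 did not pass edgeR's test and is not among the 99. By the annotated start of FUT1, however, the 250 bases before FUT1 include the element shown for FGF21. A match describes the letters of a window and no binding was measured here. The ADM2 promoter held none of the 5 motifs searched, and its 250 bases (chr22:50481293-50481542, plus strand) are shown for comparison with FGF21, since ADM2 also rose. They have a GC content of 78.8%, against a median of 58.0% over all promoters.

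ADM2 upstream: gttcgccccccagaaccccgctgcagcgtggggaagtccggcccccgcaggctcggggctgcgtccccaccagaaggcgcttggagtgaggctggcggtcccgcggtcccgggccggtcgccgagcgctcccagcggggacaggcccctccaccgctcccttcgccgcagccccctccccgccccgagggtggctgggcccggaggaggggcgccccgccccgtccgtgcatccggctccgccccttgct

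The other motifs were the cAMP response element TGACGTCA (in 1.77% of promoters), the endoplasmic reticulum stress element (CCAAT and CCACG with any 9 bases between them, 0.0806%), the hypoxia element core ACGTG (18.7%) and the TATA box core TATAAA (11.1%). Of these, a match in the 4 promoters was found for the TATA box core alone, in GDF15, 29 to 24 bases before its RefSeq start on the strand of the gene. GC content was 58.4% for GDF15, 60.0% for FGF21 and 63.6% for STC2. The absence of a match says only that these letters are not in these windows.

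Libraries held 32342017 to 40066223 gene counts. In edgeR's quasi-likelihood test of the 19040 genes, 223 had a Benjamini-Hochberg adjusted p under 0.05, 209 of them higher after knockdown, and the median log2 fold change of all tested genes was 0.05. An unadjusted p under 0.05 was reached by 3138 genes. The tsRNA is not measured by these counts, so the knockdown itself was not checked. Of the 12 markers of the line and its lineage, keratins, EPCAM, CDH1 and EGFR were high in both groups, while the surfactant genes SFTPB and SFTPC, defining of alveolar cells, were at or near 0 and the lineage factor gene NKX2-1 was at 0.791 CPM (counts scaled to the library total) after knockdown and 0.151 CPM in the control. The summed level of the 12 was 11100 to 14120 CPM after knockdown and 13080 to 14490 in the control. Whether the libraries of a group are separate cultures is not in the labels, and the p-values therefore reflect only how far these libraries spread, which may be technical. In bulk RNA a higher share of cells with a transcript and more transcript per cell cannot be told apart.

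After knockdown STC2 and ADM2 rose, by 1.50-fold and 1.80-fold. FGF21 was 10.8-fold higher and GDF15 1.64-fold higher, without passing edgeR's test across all genes. STC1 was 1.11-fold higher, a difference within the spread of its libraries. Thus 2 of the 5 genes were called higher and none lower, where 1.10% of all tested genes were called higher. In 4 of the 5 every knockdown library lay above every control library, which was the case for 13.4% of all tested genes. FGF21 is among the 4, and it had no count in control library 1, so it was tested only with help from the knockdown libraries. Because the 5 were chosen with earlier results known, these shares are descriptive. The median log2 fold change of the 5 was 0.71.

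**Figure D1:**
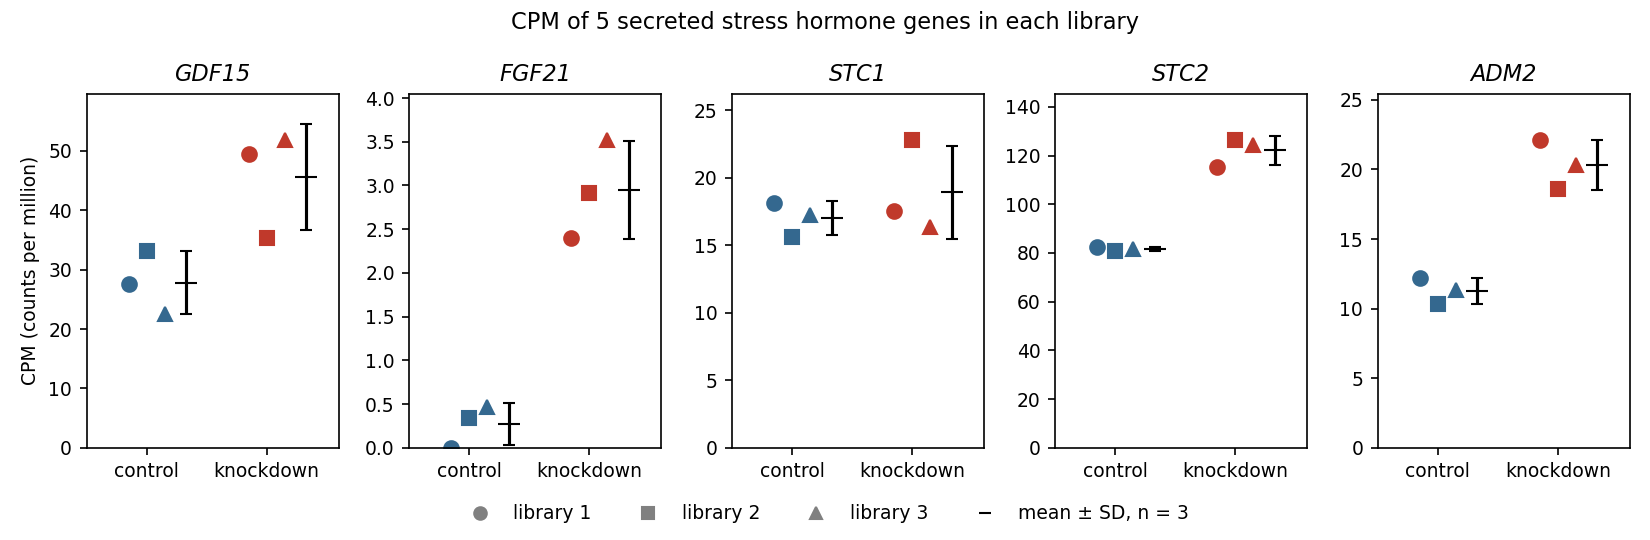
CPM (vertical axis, from 0, a separate scale for each gene) of the 5 genes in each control and knockdown library, with one marker shape per library number and bars for mean ± SD (n = 3). Every knockdown library lies above every control library for GDF15, FGF21, STC2 and ADM2, while STC1 overlaps between 16.4 and 18.1 CPM.

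FGF21 (ENSG00000105550; chromosome 19, 48755559 to 48758330, plus strand) had the largest difference and the lowest level. Its counts in libraries 1, 2 and 3 were 91, 99 and 150 after knockdown against 0, 11 and 18 in the control. Those are 2.40, 2.91 and 3.52 CPM against 0, 0.341 and 0.471 CPM. The highest control library was far below the lowest knockdown library, and control library 1 had no count at all. A count of 0 there allows up to 0.0802 CPM (3 counts, counting error only). The mean was 2.95 ± 0.560 CPM (SD, n = 3) after knockdown and 0.271 ± 0.243 CPM in the control. The log2 fold change was 3.43 ± 0.71 (SE), and the edgeR adjusted p was 0.0679, short of the threshold. This fold was larger than that of 99.4% of tested genes. FGF21 had enough counts to be tested only with help from the knockdown libraries, so this rank is descriptive. The call turned on the control library without counts and on the tool. Without control library 1 the log2 fold change was smaller, at 2.84, and the edgeR adjusted p was 0.0210. DESeq2 gave 3.42 with an adjusted p of 4.7e-06, where it called 1.87% of its genes higher.

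The gene upstream of FGF21 was also higher. FUT1, a fucosyltransferase gene that makes the H blood group antigen, lies on the opposite strand (chromosome 19, 48748011 to 48755390), so that the starts of the pair face each other, 169 bases apart in the table's annotation. FUT1 was looked at after its values were seen, as the nearest tested protein-coding neighbour. Its CPM was 19.7, 20.9 and 20.8 after knockdown and 11.7, 13.0 and 12.2 in the control, with no overlap. FUT1 rose 1.67-fold, with log2 fold change 0.74 ± 0.14 (SE, edgeR adjusted p 0.0473), and it passed under 6 of 15 other settings, with log2 fold changes of 0.70 to 1.03. Whether counting used strand is not given. The annotated genes do not overlap, and whether reads of FUT1 were counted for FGF21, or the reverse, was not tested. The neighbour on the other side, BCAT2, 36732 bases away, was lower without passing (log2 fold change -0.25, edgeR adjusted p 0.438). Nearest neighbours of the other genes did not pass the test, with the largest difference for ADAM28 beside STC1 (1.20 against 0.287 CPM, log2 fold change 2.04, edgeR adjusted p 0.0806). PGPEP1 was nearest to GDF15 (log2 fold change 0.58, edgeR adjusted p 0.260) and MIOX nearest to ADM2 (log2 fold change -0.27, edgeR adjusted p 0.801).

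GDF15 (ENSG00000130513; chromosome 19, 18374731 to 18389176, plus strand) was the most abundant of the 5 per length of transcript. Its counts were 1875, 1199 and 2208 after knockdown and 1033, 1070 and 862 in the control. Those are 49.5, 35.3 and 51.9 CPM against 27.6, 33.2 and 22.6 CPM. The groups did not overlap, but knockdown library 2 lay only just above control library 2. The mean was 45.6 ± 8.96 CPM against 27.8 ± 5.30 CPM. The log2 fold change was 0.71 ± 0.20 (SE), and the edgeR adjusted p was 0.153. GDF15 overlaps the microRNA gene MIR3189, which lies inside it. With limma on the log2 of the deposited TPM (transcript levels scaled by length and library total), the adjusted p was 0.0293 and the log2 fold change 0.97. On that scale the median of all genes was 0.27, and 1.91% of genes were called higher, as were 4 of the 5 hormone genes (all but STC1).

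STC2 (ENSG00000113739; chromosome 5, 173314713 to 173329503, minus strand) had the highest counts of the 5 and the closest replicates. It had 4374, 4298 and 5295 counts after knockdown and 3083, 2602 and 3126 in the control. In CPM these were 115.5, 126.5 and 124.4 against 82.4, 80.7 and 81.8. The lowest knockdown library was well above the highest control library. STC2 rose from 81.6 ± 0.905 to 122 ± 5.82 CPM, with log2 fold change 0.58 ± 0.11 (SE, edgeR adjusted p 0.0488). This is just inside the threshold, and the call was lost when any 1 of the 6 libraries was left out (edgeR adjusted p 0.0760 to 0.229), with log2 fold changes of 0.54 to 0.59. DESeq2 gave an adjusted p of 0.00803.

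ADM2 (ENSG00000128165; chromosome 22, 50481556 to 50486440, plus strand) was at a lower level than STC2 and had the lowest adjusted p of the 5 in the reported edgeR fit. Its counts were 838, 631 and 864 after knockdown and 456, 333 and 432 in the control, or 22.1, 18.6 and 20.3 CPM against 12.2, 10.3 and 11.3 CPM. All knockdown libraries were higher than all control libraries. ADM2 rose from 11.3 ± 0.936 to 20.3 ± 1.78 CPM, with log2 fold change 0.85 ± 0.15 (SE, edgeR adjusted p 0.0399). This call too was lost when any 1 library was left out (edgeR adjusted p 0.0680 to 0.172), with log2 fold changes of 0.74 to 0.91. DESeq2 gave an adjusted p of 0.00161.

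STC1, the paralogue of STC2 (ENSG00000159167; chromosome 8, 23841915 to 23854807, minus strand), had 664, 775 and 697 counts after knockdown and 678, 504 and 659 in the control. In CPM these were 17.5, 22.8 and 16.4 against 18.1, 15.6 and 17.3. The groups overlapped, with knockdown library 2 the highest and control library 2 the lowest of the 6. The mean was 18.9 ± 3.43 against 17.0 ± 1.27 CPM, or log2 fold change 0.15 ± 0.17 (SE, edgeR adjusted p 0.695). Without knockdown library 2 it was -0.02. Every library held 504 or more STC1 counts.

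The 5 genes were compared with each other through the log2 ratio of their CPM within a library, in which the scaling of libraries cancels except through the prior count. All 10 pairs were tested with a two-sided exact permutation test over the 3 and 3 libraries, in which the smallest possible p is 0.10, or 0.167 after Benjamini-Hochberg adjustment over the 10 pairs, so that no pair could pass. The ratio did not overlap between the groups in 6 pairs. These were the 4 pairs with FGF21, and STC1 with STC2 and with ADM2. The 4 pairs share the FGF21 values and are not separate results. How often other pairs of genes lack overlap was not counted, so the 6 are a description. The ratio of FGF21 was higher by 2.88 log2 units over ADM2, 3.15 over STC2 and 3.59 over STC1, and the difference for GDF15 over FGF21 was -3.02. The ratio of FGF21 to each of the other 4 was higher in every knockdown library than in every control library, although the count of 0 in control library 1 enters these ratios through the prior count. The log2 ratio of STC1 to STC2 was -2.70 ± 0.227 after knockdown and -2.26 ± 0.0929 in the control, a difference of -0.44. For STC1 to ADM2 the difference was -0.71. The 3 pairs among GDF15, STC2 and ADM2 overlapped, with differences of 0.13, -0.14 and -0.27 log2 units and exact permutation p of 0.50, 0.60 and 0.20. GDF15 over STC1 overlapped too, with a difference of 0.57 and an exact permutation p of 0.20.

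**Figure D2:**
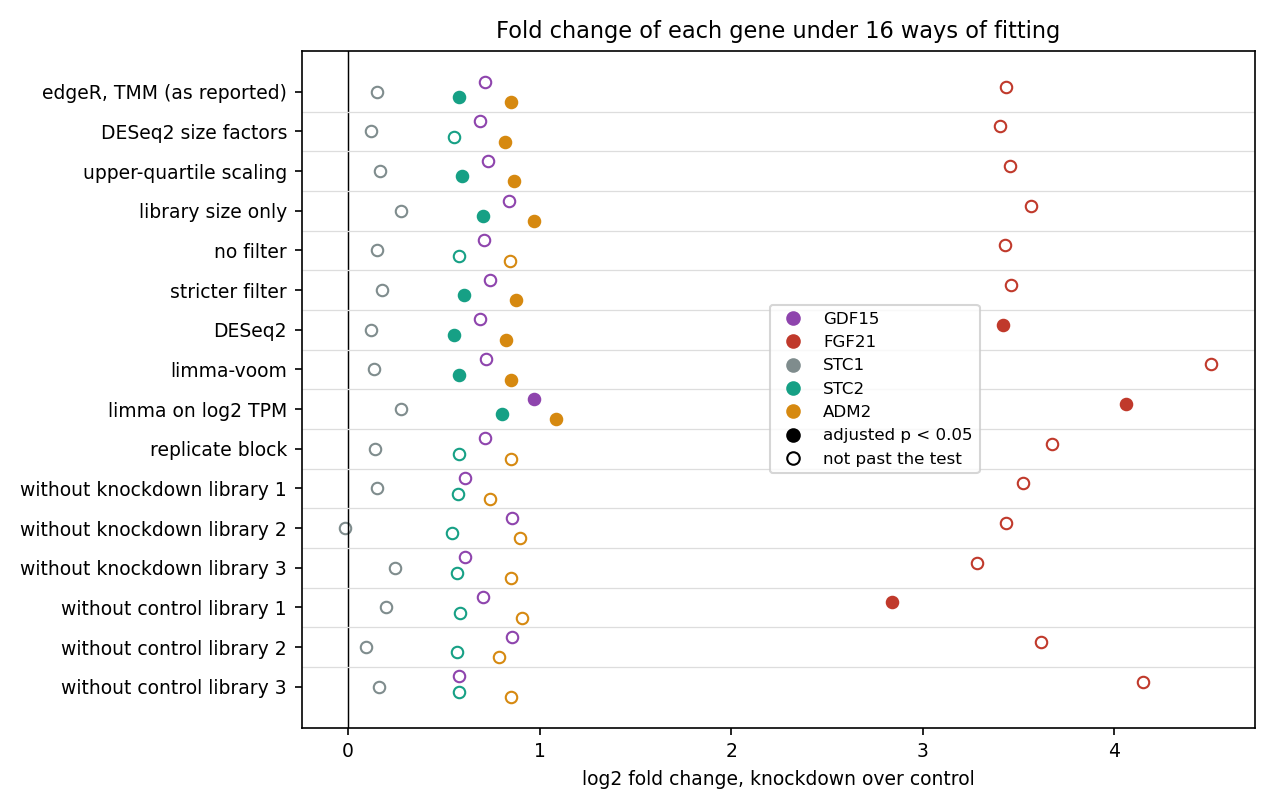
Log2 fold change, knockdown over control (horizontal axis), of each of the 5 genes under the reported fit and 15 alternatives (rows), with filled points where the adjusted p was under 0.05. STC2 is filled under 6 of the 15 alternatives, ADM2 under 7, FGF21 under 3, GDF15 under 1 and STC1 under none, and STC1 without knockdown library 2 is the one point below 0.

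Levels of different genes were compared in the deposited TPM, which are scaled by transcript length. GDF15 stood highest, at 71.1 ± 11.7 TPM after knockdown against 36.1 ± 5.33 TPM in the control. STC2 followed, at 47.1 ± 4.25 against 26.9 ± 2.05 TPM. GDF15 was above STC2 and STC2 above the other 3 in each of the 6 libraries. The next places were shared. ADM2 had 8.82 ± 0.527 TPM after knockdown and STC1 9.33 ± 1.95 TPM, a difference within their spread. In the control ADM2, at 4.13 ± 0.614 TPM, was below STC1, at 7.60 ± 0.832 TPM, in each library. After knockdown ADM2 was above STC1 in libraries 1 and 3 and below it in library 2. FGF21 was lowest in each library, at 5.70 ± 1.24 against 0.379 ± 0.390 TPM. By mean TPM among the tested genes, FGF21 moved from percentile 8.5 in the control to 39.6 after knockdown, GDF15 from 79.3 to 88.0, STC2 from 73.6 to 81.8 and ADM2 from 38.7 to 47.3, while STC1 was at 48.6 and 48.4.

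RNA of some receptors for these hormones was not detected. GFRAL, the receptor of GDF15, had 0 counts in all 6 libraries, which allows up to 3 counts in each, and its signalling partner RET had 8 counts in knockdown library 2 and none elsewhere. KLB, which encodes beta-klotho, was at 0.294 ± 0.0822 CPM after knockdown and 0.221 ± 0.132 CPM in the control, or 5 to 16 counts a library. FGF receptor genes were present, with FGFR3 at 68.7 ± 14.1 against 68.1 ± 7.06 CPM, FGFR1 at 16.5 ± 0.745 against 16.6 ± 2.88 CPM and FGFR4 at 11.1 ± 3.17 against 12.0 ± 2.20 CPM, and FGFR2 had no counts. For ADM2, the receptor gene CALCRL had 0 to 5 counts a library. RAMP1, which encodes an accessory protein of that receptor, was at 37.6 ± 5.19 against 53.9 ± 6.49 CPM without overlap (log2 fold change -0.52, edgeR adjusted p 0.172). RAMP2 had at most 4 counts, and RAMP3 had none. Of 11 receptor genes 5 could be tested, and none passed in either direction, at a median log2 fold change of -0.00. In that list RAMP1 alone reached an unadjusted p under 0.05 with edgeR, which 3138 of all 19040 tested genes did. DESeq2, limma-voom and limma on log2 TPM called 0 of the list.

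Among the genes that process these hormones or are bound by them, 1 of 9 tested was higher past the test and none lower. The median log2 fold change was 0.11, and DESeq2 called 3 higher. Over all genes, edgeR called 1.10% higher and DESeq2 1.87%. PAPPA2, a protease that stanniocalcins inhibit, had 24, 13 and 18 counts after knockdown and 0 in each control library. Taking 3 counts in all control libraries together as the floor, the PAPPA2 mean of 0.480 CPM was at least 17.2-fold higher (edgeR adjusted p 0.0372). This bound holds the counting error of the control only and leaves out the spread of the knockdown libraries. PAPPA2 passed under 6 of 15 other settings, with log2 fold changes of 0.91 to 7.3. PAPPA2 had enough counts to be tested only through the knockdown libraries, so that being tested already required a difference, and the list's 1 call is no support for a change of the list. PAPPA, the other protease they inhibit, was at 3.54, 2.56 and 3.43 CPM after knockdown and 1.58, 1.12 and 1.44 CPM in the control, a 2.30-fold difference with an edgeR adjusted p of 0.0701. IGFBP5, a substrate of both proteases, was at 161 ± 22.8 against 101 ± 10.3 CPM (log2 fold change 0.68, edgeR adjusted p 0.0761). IGFBP4, a substrate of PAPPA, was at 38.8 ± 5.10 against 43.2 ± 3.26 CPM. FURIN, a proprotein convertase, was at 319 ± 60.5 against 338 ± 18.4 CPM, and PAM, which amidates peptide hormones, at 94.8 ± 12.8 against 95.6 ± 3.13 CPM. PCSK5, PCSK6 and PCSK7, further convertases, had log2 fold changes of 0.09, 0.14 and 0.11. FAP, a protease that cuts FGF21, had 0 to 14 counts a library.

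**Figure D3:**
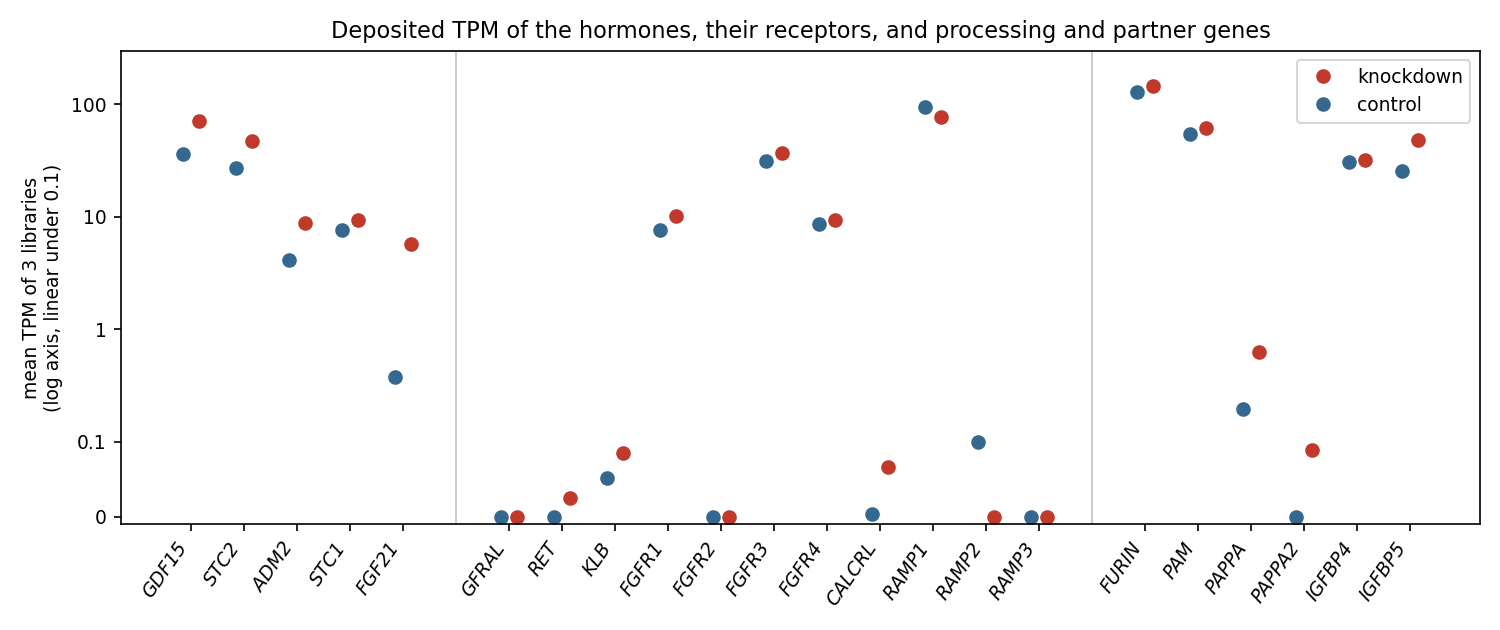
Mean deposited TPM of 3 libraries (vertical axis, logarithmic above 0.1 and linear below) of the 5 hormone genes, 11 receptor genes and 6 processing and partner genes in control and knockdown. GDF15 and STC2 are the highest of the 5 hormones, and GFRAL, FGFR2 and RAMP3 lie at 0 in both groups.

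Family relatives of the 5 genes were mostly absent or did not pass. Of 14 relatives 7 could be tested, 1 rose and none fell, at a median log2 fold change of 0.30. Of all tested genes 1.10% were called higher. INHBE, an inhibin beta subunit gene of the TGF-beta family, was at 11.8, 7.54 and 11.3 CPM after knockdown and 0.348, 0.620 and 0.105 CPM in the control. INHBE rose 28.9-fold, with an edgeR adjusted p of 0.00411, and passed under all 15 other settings. Control library 3 held 4 INHBE counts, under the filter, so INHBE was tested only with help from the knockdown libraries. The list's 1 call is therefore no support for a change of the list. ADM, the paralogue of ADM2, was at 18.8 ± 0.486 against 16.1 ± 2.60 CPM (log2 fold change 0.22, edgeR adjusted p 0.519). FGF19, an endocrine relative of FGF21, was at 1.81 ± 0.0858 against 1.64 ± 0.514 CPM, and FGF23 had no counts. GDF11 was at 26.8 ± 0.977 against 21.0 ± 2.64 CPM and INHBA at 187 ± 30.8 against 152 ± 39.6 CPM, neither past the test.

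Regulators of stress responses in general were read from the same fit, and whether each acts on the hormone genes was not tested. Of 26 stress regulators 3 rose and none fell, at a median log2 fold change of 0.19. Of all tested genes 1.10% were called higher. ATF3, a stress-induced repressor and activator, was at 58.3, 67.6 and 36.0 CPM after knockdown and 8.37, 7.10 and 10.4 CPM in the control, a 6.25-fold rise (edgeR adjusted p 0.00411). PPP1R15A, a phosphatase subunit that reverses eIF2 phosphorylation, rose 1.78-fold (edgeR adjusted p 0.0174). KLF4, a transcription factor, rose 2.59-fold (edgeR adjusted p 0.0466). Of 15 other settings ATF3 passed under 15, PPP1R15A under 9 and KLF4 under 6. ATF4 RNA was among the most abundant of the list. Its CPM was 742, 624 and 666 after knockdown and 813, 883 and 793 in the control, all knockdown libraries lower (log2 fold change -0.29, edgeR adjusted p 0.243). The value was negative under each of the 15 other settings, from -0.41 to -0.17. DDIT3, which encodes CHOP, was at 34.8, 22.5 and 23.0 against 13.9, 22.1 and 12.3 CPM (log2 fold change 0.73, edgeR adjusted p 0.232). CEBPB and EIF2AK1, the other regulators of highest level, had log2 fold changes of -0.20 and -0.06.

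Other stress-responsive genes were counted beside the hormones. Of 25 intracellular ATF4 targets 2 rose and none fell, at a median log2 fold change of 0.23. DESeq2 called 3 of them higher and limma on log2 TPM 4. Over all genes, edgeR called 1.10% higher, DESeq2 1.87% and limma on log2 TPM 1.91%. The list was chosen with earlier results known, so its counts are descriptive. CHAC1, which degrades glutathione, was at 21.1, 12.5 and 22.7 CPM after knockdown against 3.50, 1.89 and 3.64 CPM, a 6.21-fold rise (edgeR adjusted p 0.00973). ASNS, asparagine synthetase, was at 67.6, 79.7 and 69.5 against 34.4, 45.4 and 39.7 CPM, a 1.81-fold rise (edgeR adjusted p 0.0367). CHAC1 passed under 15 of 15 other settings and ASNS under 7. The amino acid transporter genes SLC7A5, SLC38A2 and SLC3A2 had log2 fold changes of 0.27, 0.18 and 0.53 and did not pass. None of 16 hypoxia targets passed with edgeR (median 0.24), while 2 had an unadjusted p under 0.05, DESeq2 called 0 and limma on log2 TPM 1. With edgeR an unadjusted p under 0.05 was reached by 3138 of all 19040 tested genes. LDHA, NDRG1 and SLC2A1, which encode lactate dehydrogenase, a stress-responsive protein and a glucose transporter, had log2 fold changes of -0.04, 0.30 and -0.04. None of 14 genes of the unfolded protein response of the endoplasmic reticulum passed with edgeR (median 0.01) or reached an unadjusted p under 0.05, and DESeq2 and limma on log2 TPM called 0. The chaperone gene HSPA5 was at 718 ± 12.7 against 693 ± 9.87 CPM.

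Other secreted factors linked to stress were 21 tested genes, of which 4 rose and none fell, with a median of 0.18. Of all 19040 tested genes 1.10% were called higher, and 14 were called lower. The list was chosen with earlier results known, so its counts are descriptive. Of its tested genes 15 had a log2 fold change above 0 and 6 below, where 55.9% of all tested genes were above 0. INHBE, above, was among the 4, with the same limit on how it came to be tested. AREG, an EGF receptor ligand, rose 2.24-fold, from 6.27 ± 0.452 to 14.0 ± 1.23 CPM (edgeR adjusted p 0.0158). HBEGF, another EGF receptor ligand, rose 2.28-fold, from 11.1 ± 2.35 to 25.2 ± 1.50 CPM (edgeR adjusted p 0.0252). IL6, a cytokine gene, rose 2.28-fold, from 2.44 ± 0.195 to 5.57 ± 1.04 CPM (edgeR adjusted p 0.0451). Under the 15 other settings AREG passed in 10, HBEGF in 9 and IL6 in 5. IGFBP3 and VEGFA, abundant members that did not pass, had log2 fold changes of 0.40 and 0.09.

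**Figure D4:**
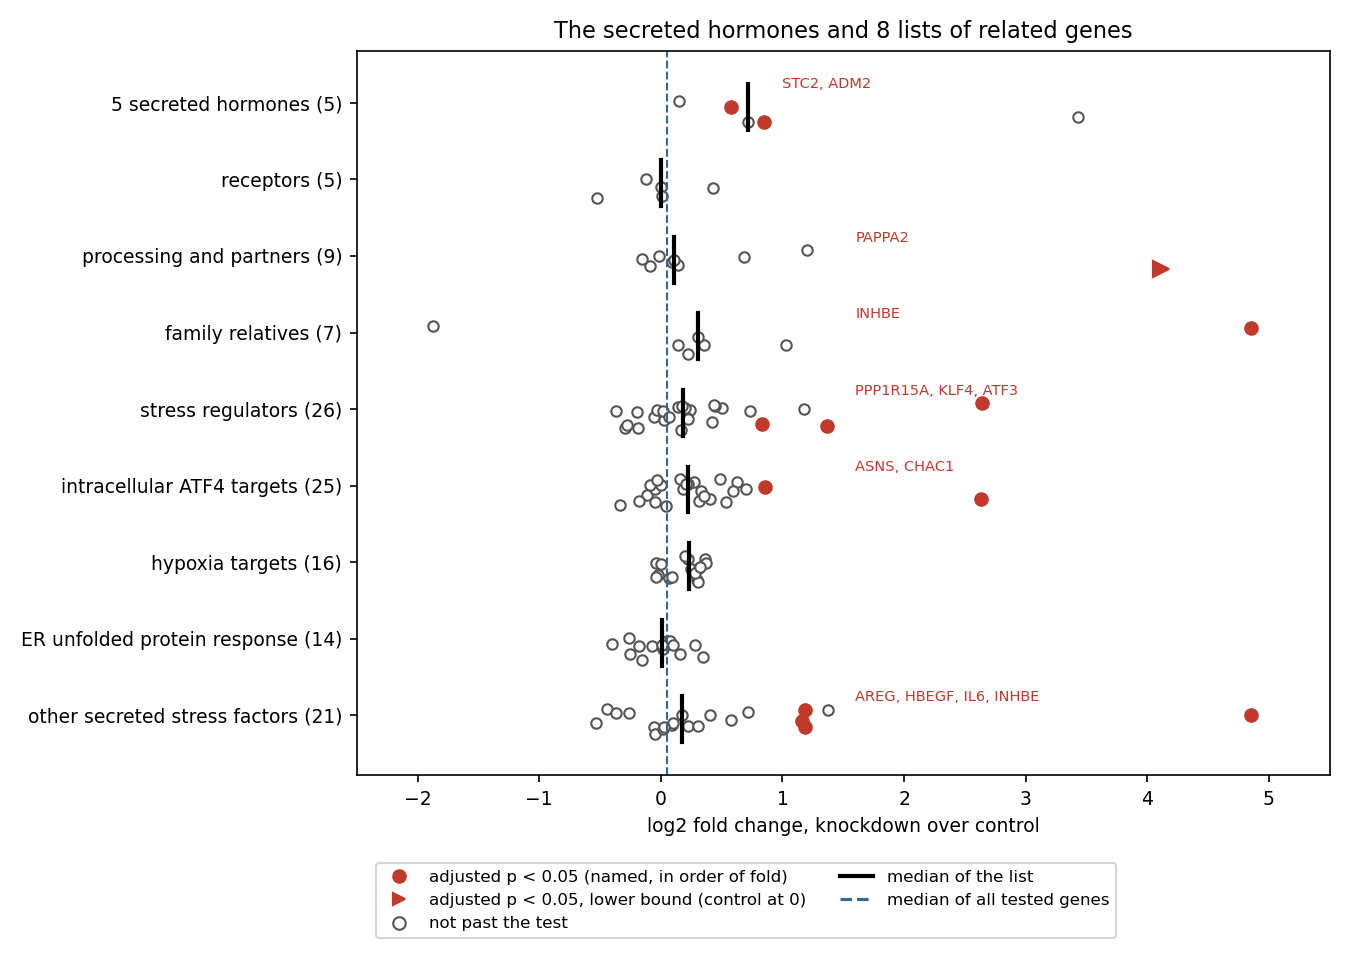
Log2 fold change, knockdown over control (horizontal axis), of each tested gene of the 5 hormones and 8 lists (rows, number tested in brackets), with filled points past an adjusted p of 0.05, a black bar at each list's median and a dashed line at the median of all tested genes, 0.05. The hormones' median of 0.71 is the value of GDF15, which did not pass. That median lies to the right of the medians of these 8 lists, which run from -0.00 to 0.30. The 5 and the lists were chosen with earlier results known, so this is descriptive. Fibroblast markers, not drawn, had a median of 0.81 over 3 tested genes. PAPPA2 is drawn at a lower bound (counting error of the control only) because its control libraries are at 0.

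Over the 6 libraries the log2 CPM of STC2 and ADM2 had a Pearson correlation of 0.95, that of FGF21 and STC2 0.86 and that of GDF15 and ADM2 0.83. STC1 had correlations of -0.09 to 0.47 with the other 4. These describe 6 points in 2 groups that differ in treatment, and carry no test. For each hormone the 3 protein-coding genes of most similar pattern were found among at least 11976. For GDF15 they were CCDC88B (0.990), IL20RB (0.987) and CBWD3 (0.984), and for FGF21 DMGDH (0.995), SPRY2 (0.994) and APOD (0.987). For STC1 they were ZYG11B (0.996), PXYLP1 (0.987) and SCRN1 (0.986). For STC2 they were ANKRD1 (0.997), PADI1 (0.997) and HIST2H4A (0.996), and for ADM2 PDGFRB (0.996), SUSD2 (0.995) and PIK3AP1 (0.994). CBWD3 and HIST2H4A have near-identical copies, so their counts are uncertain. The size of these values follows from taking the highest of so many. A like pattern is not a like size of difference. In the order named, the genes for FGF21 had log2 fold changes of 0.49, 0.19 and 0.58, and those for GDF15 0.29, 0.80 and 0.23. None of these passed edgeR's test. The pattern of FGF21 includes control library 1, which had no count.

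Markers of other cell types were read from the same libraries. Of 8 fibroblast markers 3 could be tested, at a median log2 fold change of 0.81, and the summed level was 41.2 to 61.1 CPM after knockdown and 40.2 to 47.0 CPM in the control. COL1A1, a collagen gene, made up most of that sum, at 45.1 against 41.0 CPM. PDGFRB, a growth factor receptor gene, rose 7.59-fold (edgeR adjusted p 0.00502), and DCN was at 1.32 against 0.757 CPM without overlap (edgeR adjusted p 0.264). Of all tested genes edgeR called 1.10% higher, and in 13.4% every knockdown library lay above every control library. LUM was at 0, and COL1A2, COL3A1, PDGFRA and THY1 had at most 4 counts in a library. The 8 immune markers summed to 90.3 to 117 against 85.3 to 99.1 CPM, at a median of 0.19 over the 4 that could be tested. Most of this was CD68, at 64.3 against 62.0 CPM, and CSF1R, at 33.0 against 27.1 CPM without overlap. CD14 was at 4.04 against 3.20 CPM, also without overlap, while CD3E had at most 2 counts and PTPRC 2 to 23. The 6 endothelial markers summed to 31.4 to 40.6 against 20.8 to 37.3 CPM, at a median of 0.32 over the 3 that could be tested. CDH5 was at 22.4 against 20.8 CPM and PECAM1 at 12.2 against 9.81 CPM without overlap. VWF was at 0.348 against 0.183 CPM, also without overlap, while KDR, TEK and CLDN5 had at most 2 counts. Hepatocyte markers, of interest because FGF21 is a liver hormone, summed to 0.423 to 1.001 CPM after knockdown and 0.0524 to 0.214 CPM in the control over 6 genes, none of which had enough counts to be tested. SERPINA1 had 25, 8 and 11 counts after knockdown and 2, 0 and 0 in the control, and APOA1 had 4, 14 and 4 against 0 in each control library. These differences have the direction of that of FGF21. ALB and APOB had 0 to 10 counts with overlap, and TTR and FGB were at 0. The part of these levels in the results was not tested.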

How the data were processed

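RNA of 3 knockdown and 3 control libraries of PC9 cells was sequenced on an Illumina platform, mapped to a reference genome and counted per gene by the authors, per the labels' protocols. The counting program, the aligner and whether strand was used: not given in the sources used here. Counts (whole numbers) and TPM were deposited for each gene and library. How the authors made the TPM is not stated, and the counts per TPM of FGF21 differed between libraries, so TPM served only to compare levels between genes and as an alternative. The submitters' processing notes name hg19, but coordinates in the table were those of GENCODE release 29 (GRCh38) for 56001 of the 57836 genes in both (96.8%), and gene coordinates are printed as GRCh38. Sequences came from RefSeq on GRCh38.p14.

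The quasi-likelihood test of edgeR 4.0.16 (R 4.3.3) was run on counts after TMM scaling and filterByExpr (minimum 10), and p-values were adjusted by Benjamini-Hochberg over all 19040 genes tested, at 0.05. For CPM, counts were divided by the TMM-adjusted library total, and log2 CPM for ratios and correlations had a prior count of 2. Errors are SD (n = 3) unless named as standard errors. The biological coefficient of variation was 22.9%. The fit was tested on simulated data. Alternatives were other scalings and filters, DESeq2 1.42.0, limma 3.58.1 (voom on counts, and on the log2 of TPM with a pseudocount of 0.1), the replicate number as a block and leaving out each library. Same-numbered libraries did not deviate together, so the numbers were taken not to pair them.

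The 5 genes and the lists were chosen with earlier results of these data known. Named were the 5 genes, and in each list the genes past the test, up to 3 others of highest level, all receptors and partners, and the regulators ATF4, ATF3 and DDIT3. Some genes that this rule takes, and 1 list, are not reported here. For likeness the 3 genes of highest correlation are named. Genes next to the 5 on the chromosome, and genes with the composite element, were looked at after their values were seen. Plots used Python 3.11.15 and matplotlib 3.10.9.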

Additional observations from a re-analysis of the deposited data

How the results depend on the processing

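All 5 genes kept their direction under 15 alternatives, except that STC1 reversed to -0.016 without knockdown library 2. GDF15, FGF21, STC2 and ADM2 had log2 fold changes of 0.58 to 0.97, 2.84 to 4.51, 0.54 to 0.80 and 0.74 to 1.09. Of the 5, 2 were called higher in the reported fit. With DESeq2 size factors in edgeR there was 1 (STC2 lost, at 0.55), without a low-count filter 0 (STC2 0.58, ADM2 0.85), on log2 TPM 4 (GDF15 now past the test at 0.97, FGF21 at 4.06) and with DESeq2 3 (FGF21 at 3.42). With 1 library left out it was 0 to 1. Leaving out libraries gave log2 fold changes of 2.84 to 4.15 for FGF21, 0.54 to 0.59 for STC2, 0.74 to 0.91 for ADM2 and -0.016 to 0.25 for STC1, with FGF21 the one call, without control library 1. With the replicate block 0 of the 5 passed (STC2 0.58, ADM2 0.85) and 34 of all genes. The deviations of same-numbered libraries correlated at 0.008, -0.079 and -0.026, so a call lost under the block says nothing of a weaker effect. Over all genes 223 were called, against 147 without a filter, 141 with at least 50 counts in 3 libraries, 634 with DESeq2, 375 on log2 TPM and 64 to 114 with 1 library left out. Of those of DESeq2 444 were higher and 190 lower, or 70.0% higher against 93.7% in the reported fit. The median log2 fold change of all genes was 0.18 with scaling by library size only and 0.27 on log2 TPM. Relative to the median of each setting, GDF15 was at 0.66, 0.67 and 0.71 under the reported scaling, library size only and log2 TPM, STC2 at 0.53, 0.53 and 0.54, ADM2 at 0.80, 0.80 and 0.82, and STC1 at 0.10, 0.10 and 0.01. The cause of these shifts was not tested. Depth limits FGF21, with 29 control counts in all, PAPPA2 and KLB.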
